A study of Canis lupus familiaris with 6 samples.

Results

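This report describes the genes for the first steps of glycolysis in a canine melanoma line: the hexokinases HK1 and HK2, glucose 6-phosphate isomerase (GPI), the phosphofructokinases PFKL, PFKM and PFKP, and the bifunctional enzymes PFKFB2, PFKFB3 and PFKFB4. They were chosen by symbol, and each of the 9 matched 1 row of the 29822 genes in every library. RNA sequencing was done on CMM10, a cell line from canine malignant melanoma, with 3 libraries from cells under hypoxia and 3 from cells under normoxia. All libraries came from this single line, and the labels give neither an oxygen level, nor a time, nor any other agent or genotype. They also do not say whether replicates were separate cultures, so p-values measure the spread between these libraries, which may be technical.

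Hexokinase traps glucose in the cell as glucose 6-phosphate, the isomerase turns this into fructose 6-phosphate, and phosphofructokinase commits it to glycolysis as fructose 1,6-bisphosphate. The bifunctional enzymes make and break fructose 2,6-bisphosphate, a strong activator of phosphofructokinase. In human and mouse cells HK2 and PFKFB3 are textbook targets of the hypoxia-inducible factors, and PFKFB4 is also induced by hypoxia in many human lines.

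Gene reads numbered 27272709 to 28804337 in hypoxia libraries and 23196647 to 27012866 in normoxia libraries. Replicates of a group differed by more than sampling noise (chi-square per degree of freedom 4.29 to 13.7), and each was counted as 1 sample. Of 7 melanocyte markers, 5 passed the count filter. Their summed level was 135 to 148 TPM in hypoxia and 129 to 145 TPM in normoxia libraries. SOX10 rose (72.2 ± 9.59 TPM under hypoxia and 54.5 ± 4.86 TPM under normoxia) and DCT fell (44.8 ± 2.47 TPM under hypoxia and 52.9 ± 3.17 TPM under normoxia). MITF was at 23.5 ± 1.36 TPM under hypoxia and 24.5 ± 0.86 TPM under normoxia, while TYR had no exon read in any library and TYRP1 averaged 0.0201 TPM under hypoxia and 0.0209 TPM under normoxia. Epithelial markers (4 of 6 matched, all tested) summed to 1145 to 1292 TPM under hypoxia against 449 to 468 TPM under normoxia. KRT14 made up 949 ± 84.3 TPM of this under hypoxia and 193 ± 2.87 TPM under normoxia. KRT14 and CDH1 rose (2.35 and 0.47 on the log2 scale) and EPCAM fell by 0.15. KRT18 was not called (-0.78, edgeR adjusted p = 0.0531), at 1.26 ± 0.30 TPM under hypoxia and 2.55 ± 0.87 TPM under normoxia. The 5 fibroblast markers summed to 149.8 to 156 TPM against 123 to 135 TPM, mainly COL1A1. The 4 endothelial markers summed to 4.37 to 4.63 TPM against 3.04 to 3.54 TPM. Of the 3 tested, only VWF was called, higher by 1.44 on the log2 scale. The 4 leukocyte markers summed to 0.474 to 1.15 TPM against 0.489 to 1.20 TPM, with CD3E without an exon read. The part of these markers in the results below was not tested, and in bulk RNA a change in the number of cells of a kind cannot be told apart from a change in RNA per cell.

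The comparison of hypoxia with normoxia asked how the genes of this metabolic entry step respond to low oxygen. HK1, HK2, GPI, PFKL, PFKP and PFKFB3 rose under hypoxia, each by over 2-fold. PFKFB2 fell slightly, while neither PFKM nor PFKFB4 passed. Isoforms of 1 family had unlike changes, compared pair by pair below. By TPM, HK1 stood above HK2 in both conditions, while the TPM ranking differed between conditions among the phosphofructokinases and among the bifunctional enzymes. The test was edgeR's quasi-likelihood test on total gene reads, adjusted by Benjamini-Hochberg over 15397 genes and called at 0.05. All 9 genes passed the count filter, and 6 were higher and 1 was lower, where 24.5% of all tested genes were called higher and 24.4% lower. A rise of over 2-fold was called for 6 of the 9, against 4.81% of tested genes. The TPM values of the conditions did not overlap for 7 of the 9, against 49.5% of tested genes. The median log2 change was 1.84 over the 9 genes and 0.00 over all genes tested. Changes below are log2 fold changes of gene reads, hypoxia over normoxia, with the SE of the fit. Levels are the authors' TPM, which are exon reads per exon length scaled to the same sum in each library.

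**Figure D1:**
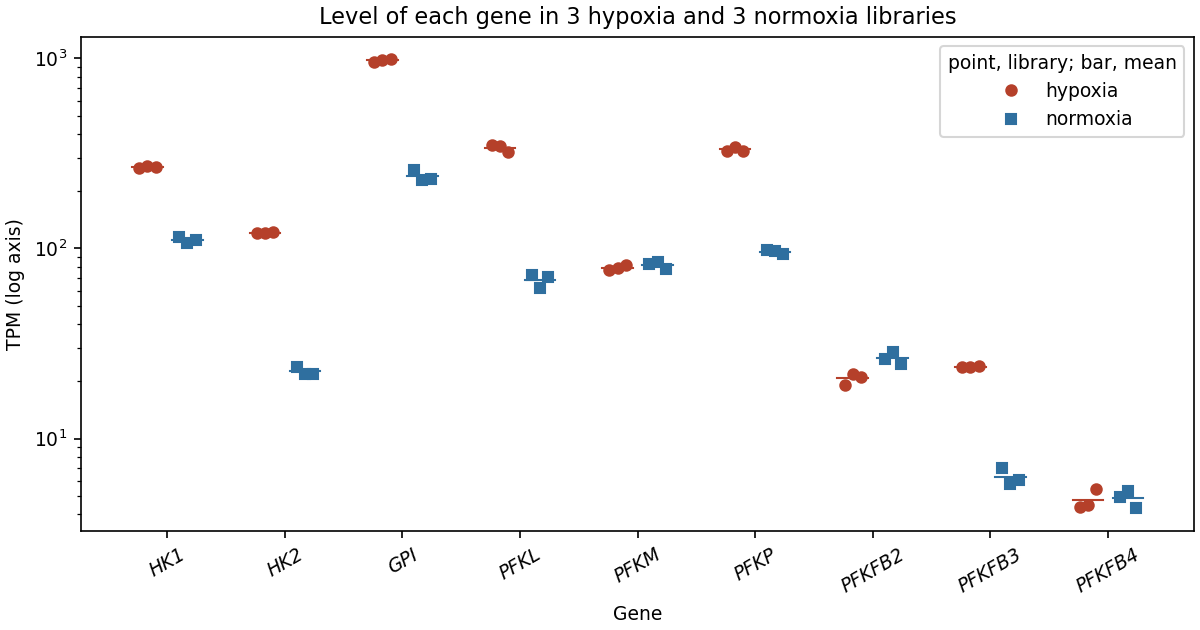
TPM of each gene on a log axis, with 1 point per library and a bar at the mean of 3 libraries; hypoxia is left of normoxia. The points of both conditions stand apart for 7 genes and overlap for PFKM and PFKFB4.

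HK1, the hexokinase found in most tissues, lies on chromosome 4 (20421526 to 20518211, plus strand) of the CanFam3.1 build. It had 264, 272 and 267 TPM in the hypoxia libraries, against 116, 108 and 111 TPM in the normoxia libraries. The lowest hypoxia library was thus well above the highest normoxia library. HK1 rose by 1.29 ± 0.034 on the log2 scale, or 2.45-fold with a 95% interval of 2.33 to 2.57 (edgeR adjusted p = 4.68e-25). The kit used does not mark the strand, and the model of TACR2 overlaps HK1 on the minus strand. TACR2 had at most 7 gene reads in any library, against at least 6566 for HK1.

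HK2, the isoform of muscle and of many tumours, lies on chromosome 17 (48289272 to 48348663, minus strand). It reached 120.4, 121 and 122 TPM in the hypoxia libraries, against 23.7, 22.0 and 22.0 TPM in the normoxia libraries. The 3 hypoxia libraries lay within 2 TPM of each other, with no overlap between conditions. Its rise was the largest of the 9 genes, 2.46 ± 0.045 or 5.50-fold (interval 5.16 to 5.87, edgeR adjusted p = 2.83e-29), and 99.4% of tested genes had a smaller log2 change.

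Although HK2 had the larger fold change, HK1 remained the more abundant transcript per length in every library. HK2 made up 31.2% ± 0.29 of the summed HK1 and HK2 TPM under hypoxia and 16.8% ± 0.30 under normoxia (SD, n = 3 each, two-sided exact permutation p = 0.1, the smallest that 3 against 3 can give). The summed level of both was 389 ± 4.58 TPM under hypoxia and 134 ± 4.95 TPM under normoxia. Of that difference in TPM, 61.3% came from HK1 and 38.7% from HK2. The log2 ratio of HK2 to HK1 gene reads, which does not depend on library scaling, was -1.60 ± 0.029 under hypoxia and -2.77 ± 0.056 under normoxia (SD, n = 3 each). HK2 therefore rose 2.25-fold more than HK1 (exact permutation p = 0.1). In all, 7 such pairs of isoforms were compared, and each gave an exact permutation p = 0.1, which is also the value adjusted over the 7 pairs.

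GPI, on chromosome 1 (117922635 to 117948316, minus strand), was the most abundant of the 9 in both conditions. It had 955, 984 and 991 TPM in the hypoxia libraries, against 258, 229.8 and 231 TPM in the normoxia libraries. All hypoxia values exceeded all normoxia values. GPI rose by 2.07 ± 0.040, or 4.19-fold (edgeR adjusted p = 3.35e-26). Uniquely mapped reads were 99.3% of its gene reads in each condition, the lowest share among the 9 genes.

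In the phosphofructokinase family the log2 changes ran from -0.02 to 2.38. PFKL, named for its abundance in liver, lies on chromosome 31 (38156451 to 38178507, plus strand). It had 348, 345 and 321 TPM in the hypoxia libraries, against 72.8, 61.7 and 71.0 TPM in the normoxia libraries, without overlap. It rose by 2.38 ± 0.058, or 5.22-fold (interval 4.78 to 5.69, edgeR adjusted p = 4.33e-13).

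PFKP, the platelet isoform, which is common in tumour cells, lies on chromosome 2 (32220878 to 32260911, minus strand). It had 327, 343 and 327 TPM in the hypoxia libraries, against 97.9, 96.5 and 93.8 TPM in the normoxia libraries. The conditions were again fully apart. PFKP rose by 1.84 ± 0.036, or 3.58-fold (edgeR adjusted p = 8.96e-29).

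PFKM, the muscle isoform, on chromosome 27 (6620300 to 6663670, minus strand), had 76.7, 78.6 and 81.5 TPM in the hypoxia libraries and 82.6, 85.3 and 77.5 TPM in the normoxia libraries. The values of the conditions overlapped. Its change of -0.02 ± 0.046 did not pass the test (edgeR adjusted p = 0.697), and the 95% interval ran from 0.922-fold to 1.05-fold. PFKM had 2715 to 3635 gene reads per library.

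The shares within the family followed from these changes. PFKM made up 10.5% ± 0.56 of the summed phosphofructokinase TPM under hypoxia and 33.2% ± 1.60 under normoxia. PFKL made up 45.1% ± 1.15 under hypoxia and 27.8% ± 2.15 under normoxia, and PFKP 44.4% ± 0.74 and 39.0% ± 0.55 (SD, n = 3 per condition, exact permutation p = 0.1 for each). The family sum was 749 ± 19.4 TPM under hypoxia and 246 ± 6.04 TPM under normoxia, 3.04 times as high. PFKL supplied 53.6% of that difference in TPM and PFKP 47.0%. This split rests on the annotated exon lengths, 2482 bases for PFKL and 5125 for PFKP. In gene reads, before any scaling, the mean was higher under hypoxia by 9875 for PFKL and by 16256 for PFKP. The smaller difference between the rising isoforms held too: the log2 ratio of PFKL to PFKP gene reads was -0.88 ± 0.052 under hypoxia and -1.42 ± 0.13 under normoxia, without overlap (exact permutation p = 0.1). Relative to PFKM, gene reads rose 5.30-fold for PFKL and 3.63-fold for PFKP (exact permutation p = 0.1 for each).

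**Figure D2:**
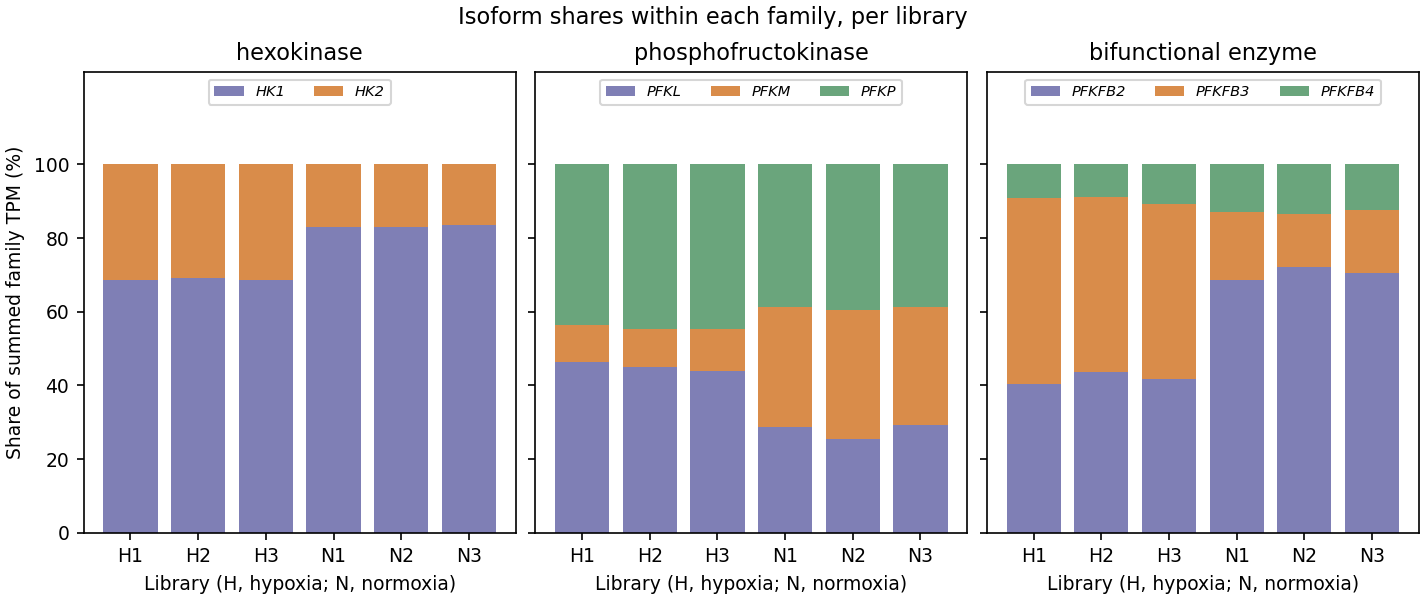
Share of the summed TPM of each family, in percent, held by each isoform in each library (H, hypoxia; N, normoxia). HK2, PFKL, PFKP and PFKFB3 hold a larger share in all hypoxia libraries, and HK1, PFKM, PFKFB2 and PFKFB4 a smaller one.

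Of the bifunctional enzymes, PFKFB3 rose, PFKFB2 fell and PFKFB4 did not pass. All 3 had lower TPM than the other 6 genes under hypoxia, whereas under normoxia PFKFB2 stood above HK2 in TPM. PFKFB3, whose kinase activity far exceeds its phosphatase activity, lies on chromosome 2 (29716752 to 29801936, minus strand). It had 23.8, 23.9 and 24.0 TPM in the hypoxia libraries, against 6.99, 5.78 and 6.03 TPM in the normoxia libraries. The hypoxia values were nearly equal and all above the normoxia values. PFKFB3 rose by 1.93 ± 0.065, or 3.82-fold (interval 3.48 to 4.19, edgeR adjusted p = 5.86e-22).

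PFKFB2, an isoform best known from heart, lies on chromosome 7 (6196656 to 6218397, plus strand). It had 19.1, 21.9 and 21.1 TPM in the hypoxia libraries, against 26.1, 28.5 and 24.7 TPM in the normoxia libraries. Every hypoxia value was below every normoxia value. PFKFB2 fell by 0.33 on the log2 scale (SE 0.051, 0.794-fold, edgeR adjusted p = 1.89e-06).

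PFKFB4, on chromosome 20 (40556790 to 40585652, plus strand), was the lowest of the 9 genes. It had 4.37, 4.50 and 5.40 TPM in the hypoxia libraries and 4.93, 5.28 and 4.31 TPM in the normoxia libraries, with overlapping values. Its change was -0.03 ± 0.10 (edgeR adjusted p = 0.814), on 291 to 381 gene reads per library. The 95% interval of 0.846-fold to 1.13-fold is wider than that of PFKM, and a rise of the size of PFKFB3 lies outside it.

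PFKFB3 made up 48.5% ± 1.65 of the summed TPM of the 3 genes under hypoxia and 16.7% ± 1.94 under normoxia, while PFKFB2 made up 41.9% ± 1.59 and 70.4% ± 1.71 (SD, n = 3 per condition, exact permutation p = 0.1 for each). By TPM, PFKFB2 was thus the most abundant isoform of this family in each normoxia library and PFKFB3 in each hypoxia library. The order under hypoxia rests on the annotated exon lengths, 2096 bases for PFKFB2 and 5118 for PFKFB3. In reads across exon-exon junctions PFKFB2 stayed above PFKFB3 in each hypoxia library, with means of 422 ± 20.1 and 400 ± 6.66 reads. The family sum was 49.4 ± 1.78 TPM under hypoxia and 37.5 ± 2.29 TPM under normoxia, a ratio of 1.32. The mean of PFKFB3 was higher by 17.6 TPM under hypoxia, and that of PFKFB2 fell by 5.71 TPM. The log2 ratio of PFKFB3 to PFKFB2 gene reads was -0.04 ± 0.038 under hypoxia and -2.31 ± 0.11 under normoxia, and that of PFKFB4 to PFKFB3 was -2.36 ± 0.16 and -0.38 ± 0.13 (n = 3 per condition, exact permutation p = 0.1 for each). PFKFB4 and PFKFB2 differed least in response, with log2 ratios of -2.40 ± 0.20 under hypoxia and -2.69 ± 0.048 under normoxia (exact permutation p = 0.1). That difference of 0.29 had a 95% interval, from the pooled SD, of -0.03 to 0.62, which includes 0, and was 0.18 without hypoxia replicate 3.

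Ordered by mean TPM, the hypoxia levels ran GPI, PFKL, PFKP, HK1, HK2, PFKM, PFKFB3, PFKFB2 and PFKFB4. Values of neighbours in this order overlapped only for PFKL and PFKP. The normoxia levels ran GPI, HK1, PFKP, PFKM, PFKL, PFKFB2, HK2, PFKFB3 and PFKFB4, with no overlap between neighbours. By TPM, PFKM therefore stood above PFKL, and PFKFB2 above HK2, in normoxia libraries, and both orders were the opposite under hypoxia. In reads across exon-exon junctions HK2 stood above PFKFB2 in each normoxia library, with means of 610 ± 116 and 502 ± 83.2 reads. PFKM kept its place above PFKL in these reads under normoxia, at 2143 ± 322 and 1642 ± 157. Together the 9 genes made up 0.216% ± 0.0029 of all TPM under hypoxia and 0.0658% ± 0.0027 under normoxia (SD, n = 3 per condition). Levels of different genes rest on the annotated exon lengths, from 1768 bases for GPI to 5496 for HK1.

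The files count exon and intron reads apart, so each change could be followed in both. In exon reads and in intron reads the same 6 genes were called higher and PFKFB2 lower, where 24.4% and 23.8% of 13458 genes tested on exon reads, and 18.7% and 15.7% of 13858 tested on intron reads, were called higher and lower. HK1 rose alike in both, by 1.30 ± 0.033 in exon reads and 1.30 ± 0.067 in intron reads. PFKFB2 had most of its reads in introns, 72.1% ± 1.51 under hypoxia and 72.2% ± 1.70 under normoxia, and its exon and intron reads each fell by 0.32 (edgeR adjusted p = 0.00112 and 2.21e-05). PFKFB4 also had a large intron share, 50.6% ± 1.78 under hypoxia and 51.8% ± 3.36 under normoxia, and passed the test in neither class. Over all genes introns held 24.6% ± 0.67 of reads under hypoxia and 24.2% ± 0.77 under normoxia.

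The intron share of PFKL was 17.3% ± 1.38 under hypoxia and 14.2% ± 1.76 under normoxia. The groups were barely apart, with a lowest hypoxia value of 16.236% and a highest normoxia value of 16.207% (exact permutation p = 0.1, and 0.9 when the log2 ratio of intron to exon reads was adjusted over the 9 genes). PFKL rose by 2.34 ± 0.049 in exon reads and 2.69 ± 0.10 in intron reads. PFKP had a similar gap, 1.82 ± 0.034 in exon reads and 2.16 ± 0.10 in intron reads, but its intron shares overlapped between conditions, at 8.45% ± 0.75 under hypoxia and 6.89% ± 1.33 under normoxia (exact permutation p = 0.2).

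**Figure D3:**
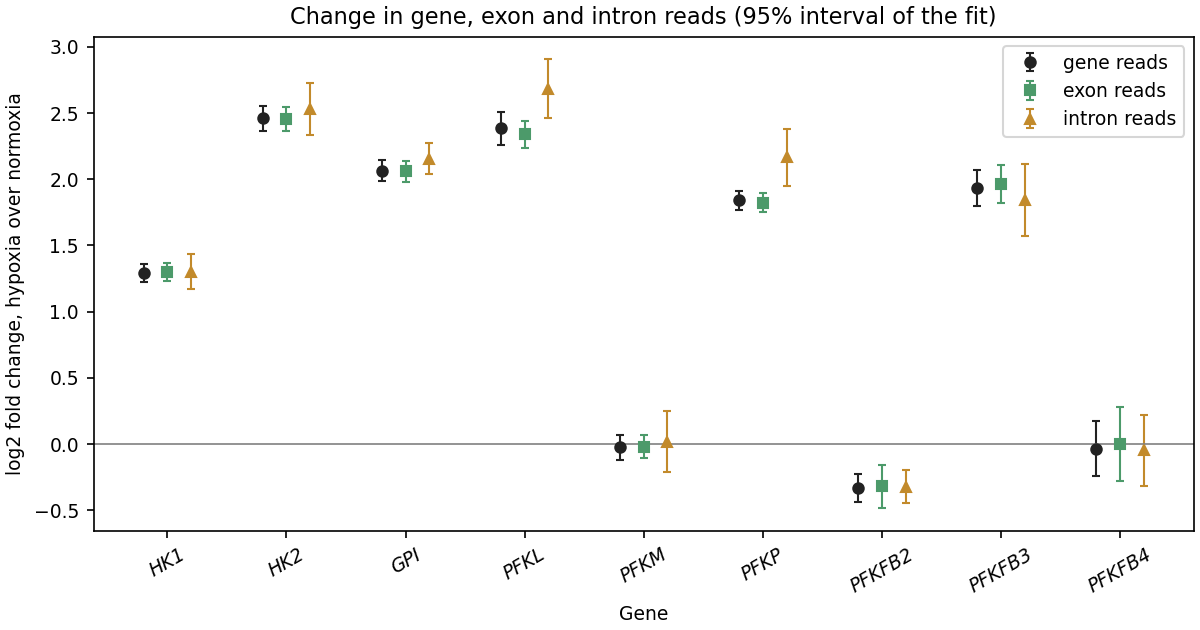
Log2 fold change, hypoxia over normoxia, of gene, exon and intron reads for each gene, with the 95% interval of edgeR's fit. The 3 read classes lie on the same side of 0 for the 7 called genes, with intron against exon reads at 2.69 and 2.34 for PFKL and at 2.16 and 1.82 for PFKP.

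Set against all tested genes, PFKL, GPI, PFKFB3 and PFKP also ranked high: 99.3%, 99.0%, 98.7% and 98.5% of genes had a smaller log2 change. HK1 stood at 96.9%, PFKM at 46.8%, PFKFB4 at 45.5% and PFKFB2 at 13.9%.

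**Figure D4:**
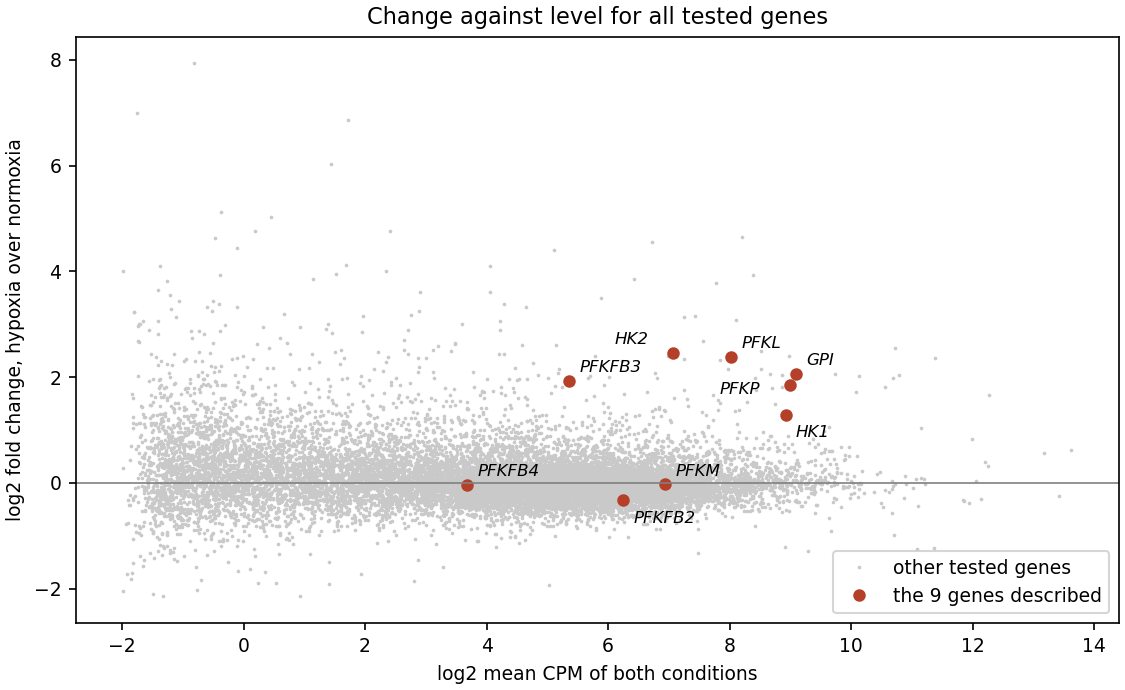
Log2 fold change, hypoxia over normoxia, against log2 mean CPM (reads scaled to the TMM-adjusted library size) for 15397 tested genes in grey, with the 9 genes in red. HK1, HK2, GPI, PFKL, PFKP and PFKFB3 lie above the main cloud, while PFKM and PFKFB4 lie at 0.

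Genes next to these steps were read from lists with 42 entries, of which 31 were tested. Of those 31, 15 were higher and 8 lower, with a median log2 change of 0.10, against 0.00 over all genes. Of all tested genes 24.5% were higher and 24.4% lower, so the lower count is near that background. Both glucose transporters listed rose, SLC2A3 the more, at 299 ± 22.1 TPM under hypoxia and 27.4 ± 2.05 TPM under normoxia (3.08 ± 0.047). In lower glycolysis 8 of 10 tested genes rose, with a median of 1.36, and BPGM (0.10), named after its value was seen, did not pass. Leaving out a library gave 6 to 8 higher genes there. The 8 include ENO3 (0.13) and PKLR (1.07, on 127 gene reads in all), also named after their values were seen. ALDOC, an aldolase, rose most, at 380.2 ± 17.7 TPM under hypoxia and 43.1 ± 3.54 TPM under normoxia (3.14 ± 0.049). LDHB, the lactate dehydrogenase subunit of heart, fell by 0.45. No symbol matched ALDOA, PGAM1, PGAM2, PKM or LDHA, which are not analysed here.

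Among other genes of glucose phosphorylation, 1 of 4 tested rose and 1 fell, which is near the 24.5% and 24.4% of all tested genes. HKDC1, a hexokinase-like gene, lies 26891 bases before HK1 on the same strand of chromosome 4 (20353355 to 20394634). It had 150, 130 and 132 gene reads in the hypoxia libraries, against 41, 28 and 13 in the normoxia libraries, with no overlap. HKDC1 rose by 2.25 ± 0.24 (edgeR adjusted p = 2.73e-09), yet reached only 2.56 ± 0.36 TPM under hypoxia against 0.576 ± 0.21 TPM under normoxia. Its reads across exon-exon junctions were 204 under hypoxia and 49 under normoxia in all. ADPGK, which phosphorylates glucose with ADP, fell by 0.12 (edgeR adjusted p = 0.00779), and that call was lost from exon-exon reads. HK3 (-0.16) and GCKR (-0.12), named after their values were seen, did not pass.

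Of 4 other genes of fructose bisphosphate control, TIGAR, a fructose bisphosphatase, was tested. TIGAR had 38.1 ± 1.59 TPM under hypoxia and 61.0 ± 5.01 TPM under normoxia (SD, n = 3 each) and fell by 0.62 (edgeR adjusted p = 8.72e-09). PFKFB1, FBP1 and FBP2, the enzymes best known from liver and muscle, had 9, 3 and 6 gene reads over all 6 libraries and were below the count filter. Among other users of hexose phosphates 4 of 14 tested genes rose and 5 fell, counts not far from the 24.5% and 24.4% of all tested genes. The median log2 change there was -0.04. Without hypoxia replicate 1, or without hypoxia replicate 2, 3 genes fell. MPI, which links fructose 6-phosphate to mannose, rose by 1.09 ± 0.055.

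**Figure D5:**
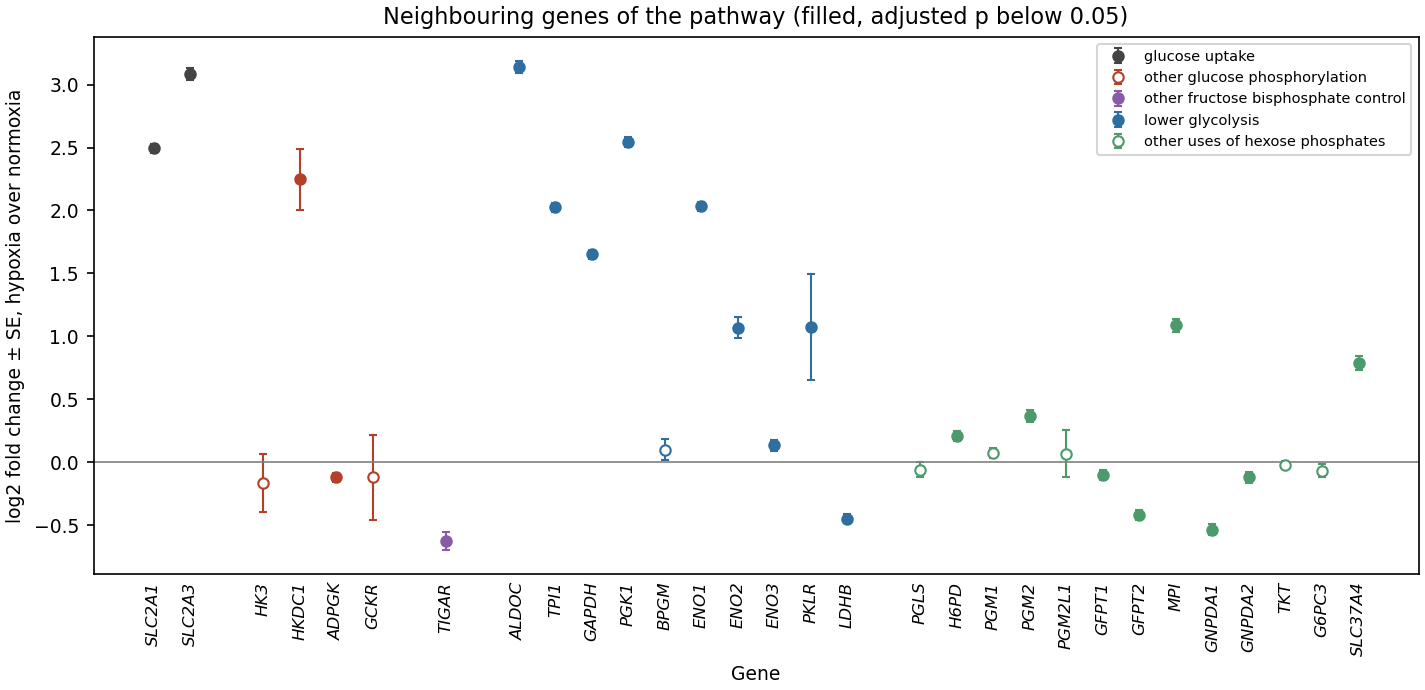
Log2 fold change ± SE, hypoxia over normoxia, for tested genes next to these steps, grouped by list; filled points passed edgeR's test at an adjusted p of 0.05. The transporters and most genes of lower glycolysis lie high, TIGAR lies at -0.62, and the other users of hexose phosphates lie on both sides of 0.

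Genes of most similar pattern were taken by Pearson r of log2 CPM over the 6 libraries among 11617 symbol-bearing genes averaging 1 CPM or more. For HK1 this was ADRA1B, for HK2 and GPI LXN, for PFKL LTBP3, for PFKP DHRS2 and for PFKFB3 ADAMTS17, each with r of at least 0.9997. For each of these 6, between 410 and 523 genes exceeded an r of 0.99, and the points share the gap between conditions. Pearson r ignores the size of a change. LTBP3 rose by 0.34 (PFKL 2.38), ADAMTS17 by 0.84 (PFKFB3 1.93) and LXN by 1.26 (HK2 2.46, GPI 2.07). ADRA1B rose by 1.54 (HK1 1.29) and DHRS2 by 1.99 (PFKP 1.84). PFKFB2 was closest to PSMA4 (r = 0.998), PFKFB4 to SUMF1 (r = 0.991) and PFKM to KCNK7 (r = 0.972). Like PFKFB4 and PFKM, SUMF1 and KCNK7 were not called (edgeR adjusted p = 0.832 and 0.682). Neither of these matches rests on a called change, and each is only the highest r among 11617 genes over 6 libraries. For PFKM no gene exceeded 0.99.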

How the data were processed

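RNA of 6 CMM10 libraries was measured after oligo-dT selection, per the labels' protocols, with a kit that does not mark strand. The deposited counts are, per the file headers, reads per gene, split into exon, intron and exon-exon reads, on CanFam 3.1 per the submitters' processing notes. For the aligner and counting tool, names are not given in the sources at hand. The deposited TPM equals total exon reads per exon length.

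Total gene reads were filtered by edgeR's filterByExpr, leaving 15397 genes, scaled by TMM and tested by edgeR 4.0.16 (limma 3.58.1, R 4.3.3; quasi-likelihood, robust, no covariate), with Benjamini-Hochberg adjustment. The fit was tested on simulated data in which few genes changed, with equal numbers raised and lowered. Many more genes were called in the real data, so that test does not cover the choice of scaling. Shares and ratios used two-sided exact permutation tests (scipy 1.17.1). Alternatives were DESeq2 1.42.0, other scaling, filter and read classes, a replicate block and leaving out each library; exon-exon reads were added after seeing the data. Figures used matplotlib 3.10.9.

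The genes and lists were chosen with earlier results of these data known. Named were the 9 genes, the called gene with the largest rise and fall of each list, and the gene of most similar pattern to each of the 9. An item taken by this rule is not reported here. No sequence was used here.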

Additional observations from a re-analysis of the deposited data

How the results depend on the processing

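For the 9 genes, all 117 recomputed changes (13 alternatives each) kept their side of the threshold, and the 7 called genes kept their direction, with HK2 between 2.39 and 2.52 and PFKFB2 between -0.40 and -0.29. PFKM (-0.09 to 0.03, edgeR or DESeq2 adjusted p 0.0895 to 0.934) and PFKFB4 (-0.13 to 0.18, adjusted p 0.355 to 0.991) were called under none of them. With library size as the only scaling, calls over all genes were 3076 higher and 4862 lower (38.8% higher among calls, against 50.1% with TMM). From exon-exon reads, which test fewer genes, 2459 genes were lower against 3761, and of the other genes of glucose phosphorylation 0 were called lower. Leaving out a library gave 3 to 5 lower genes among other users of hexose phosphates. Equal replicate numbers gave no sign of pairing (correlations of deviations -0.088 to -0.020, against -0.054 to 0.094 for unequal numbers). With 3 libraries per group these correlations cannot show that no pairing existed. With the replicate block, 3769 genes were higher and 3793 lower, and 6 and 1 of the 9. Pairing cannot alter the mean difference in the log2 ratios of isoforms, so its equality is no check. For HK2 to HK1 it was 1.17 (exact sign-flip p = 0.25, the smallest 3 pairs allow). Depth limits PFKFB4 most.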

Other observations

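The share of exon reads that cross an exon-exon junction differed among the 9 genes. It was lowest for PFKFB3, at 27.6% ± 0.89 under hypoxia and 26.4% ± 4.39 under normoxia (SD, n = 3 each), over 5118 exon bases. PFKP, with 5125 exon bases, had 81.7% ± 0.27 under hypoxia and 81.7% ± 1.16 under normoxia. HK1 had 58.0% ± 0.98 under hypoxia and 57.2% ± 0.99 under normoxia, and GPI 89.9% ± 0.53 under hypoxia and 90.0% ± 0.38 under normoxia. From these reads alone PFKFB3 rose by 2.03 ± 0.12 and HK1 by 1.33 ± 0.036. PFKFB4 had a share of 72.8% ± 4.90 under hypoxia and 65.7% ± 6.24 under normoxia, with overlapping values (exact permutation p = 0.2, n = 3 each). Its change in these reads was 0.18 ± 0.16, which did not pass edgeR's test (adjusted p = 0.398).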
